A study of Mus musculus with 42 samples.

Results

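Mitochondrial biogenesis regulators are the nuclear-encoded factors that switch on the genes of the respiratory chain and the machinery that copies and transcribes mitochondrial DNA. A list of 9 of them was matched by gene symbol in both deposited tables of read counts per gene, and all 9 were found among the 35275 genes listed in each table: Ppargc1a, Ppargc1b, Esrra, Esrrg, Nrf1, Gabpa, Tfam, Tfb2m and Polrmt. Here Nrf1 is nuclear respiratory factor 1, and not the unrelated gene Nfe2l1 that is sometimes given the same abbreviation. The study sequenced RNA of whole cerebellum from male C57BL/6 mice, named C57/BL6NTac in the study's design text, with no genetic change in any group. Feeding schedules started at 3 months of age and ran for 3 months: food at all times (AL), 16 h without food each day (IF16) or 24 h without food on every other day (EOD), with collection at 6 months of age. Further mice on each schedule then had 2 months of unrestricted food and were collected when 8 months old, and these are called refed AL, refed IF16 and refed EOD (with an R in the plots). There were 5 libraries in every group, 6 groups in all. The labels call these replicates without saying that each came from a separate mouse, so p-values measure the spread between libraries.

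PGC-1alpha (Ppargc1a) and PGC-1beta (Ppargc1b) are coactivators that bind no DNA themselves and act through transcription factors, among them the estrogen-related receptors (Esrra, Esrrg), nuclear respiratory factor 1 and the ETS factor GABP, whose DNA-binding subunit is Gabpa. These factors raise transcription of respiratory chain genes and of the mitochondrial transcription machinery: Tfam packages mitochondrial DNA and bends its promoters, Tfb2m opens the promoters, and Polrmt is the mitochondrial RNA polymerase. Fasting is known to induce PGC-1alpha in liver, and in the brain the coactivator is prominent in parvalbumin-expressing inhibitory neurons.

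The promoters of the 3 mitochondrial DNA factors are where nuclear respiratory factor 1 and GABP meet the rest of the pathway, so the windows from 250 bases before to 50 bases after the listed gene starts in RefSeq (GRCm38.p6) were searched on both strands for 3 motifs. These were GCGCANGCG for nuclear respiratory factor 1, CCGGAAG for GABP and TNAAGGTCA for the estrogen-related receptors. In all, 8 members were searched (12 windows), Ppargc1b not among them, and 5 held a match. The stretches with a match are printed below 5′ to 3′ on the strand of the gene, with 20 bases on either side and the matching letters in capitals.
Esrra (chr19:6921921-6921969, minus strand): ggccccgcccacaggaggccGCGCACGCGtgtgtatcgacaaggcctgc
Gabpa (chr16:84835011-84835057, plus strand): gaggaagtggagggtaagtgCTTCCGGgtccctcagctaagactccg
Tfam (chr10:71238065-71238111, minus strand): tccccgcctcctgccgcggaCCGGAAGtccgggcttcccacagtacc
Tfb2m (chr1:179546236-179546284, minus strand): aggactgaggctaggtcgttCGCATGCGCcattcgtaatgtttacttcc
Polrmt (chr10:79746552-79746644, minus strand): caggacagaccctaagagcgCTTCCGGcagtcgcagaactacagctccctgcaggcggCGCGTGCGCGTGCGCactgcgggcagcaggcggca
The nuclear respiratory factor 1 motif was in the windows of 3 members (Esrra, Tfb2m and Polrmt, the last with 2 overlapping matches across its listed start), against 7.03% of the 27025 RefSeq genes searched (6.25% of their 32851 windows). The GABP motif was in those of 3 members (Gabpa itself, Tfam and Polrmt), against 9.93% of those genes (8.86% of all windows). The estrogen-related receptor motif was in the windows of 0 of the 8 members and of 1.43% of those genes (1.28% of all windows). Polrmt alone among the members held both of the first 2 motifs, and their matches did not overlap.

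All 9 members are protein-coding genes, and the deposited tables give their positions (mm10, per the submitters' processing notes) and a length per gene. Ppargc1a lies on chromosome 5 (51454249 to 51567725) with a listed length of 6464 bases, and Ppargc1b on chromosome 18 (61298136 to 61400431) with 3656 bases. Esrrg, with 5373 bases, spans chromosome 1 from 187608791 to 188214885, and Esrra, the shortest member with 2242 bases, lies on chromosome 19 from 6910977 to 6921813. Nrf1 (chromosome 6, 30047988 to 30153458), Gabpa (chromosome 16, 84834925 to 84863779), Tfam (chromosome 10, 71225464 to 71238280), Tfb2m (chromosome 1, 179528055 to 179546267) and Polrmt (chromosome 10, 79736123 to 79746581) have lengths of 4042, 4987, 4167, 2449 and 4288 bases. Reads from 3 members may be shared with a neighbour on the opposite strand, since the use of strand in counting is not given in the sources used here: Gabpa overlaps Atp5j by 701 bases, Tfb2m overlaps the pseudogene Gm15480 by 519 bases, and Esrra overlaps Trmt112 by 73 bases.

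Total counts per library ranged from 26799825 to 36167435. Markers of granule cells summed to between 6316 and 7581 CPM (read counts scaled to library size) in every library, while forebrain markers stayed at or below 10.4 CPM. Choroid plexus markers, by contrast, summed to between 33.3 and 4270 CPM. Brainstem markers were low, between 0.373 and 11.4 CPM, with medians of 1.79 in AL, 4.11 in IF16 and 6.45 in EOD. Their medians after refeeding were 1.4 in refed AL, 0.668 in refed IF16 and 0.853 in refed EOD. Libraries also differed in a length gradient, the slope over genes of log2 CPM, less the gene's mean, on log2 gene length: it ran from -0.158 to 0.139 at the end of the regimens and from -0.0261 to 0.0416 after refeeding. At the end of the regimens 4 libraries lay more than 0.1 from 0, namely AL replicates 4 and 5 and IF16 replicate 1 (gradients of -0.158, -0.106 and -0.114) and EOD replicate 4 (0.139), and results are also given without these 4 libraries, an alternative chosen after seeing the data. In whole tissue, fewer cells of a type and less RNA per cell cannot be told apart.

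Measured per length, as deposited FPKM, the nuclear receptor Esrra was the most abundant member. By the median over the 30 libraries, the coactivators were among the lower ones. Esrra had a median of 68.1 FPKM over the 30 libraries (56.6 to 83.9), which is higher than 94.2% of the genes tested. Polrmt followed with a median of 16.4 FPKM (12.2 to 20), and Esrrg with 14.3 (10 to 16.8). The remaining 6 genes lay close together: Tfam at 8.61 FPKM, Tfb2m at 8.37, Ppargc1a at 7.89, Ppargc1b at 7.83, Nrf1 at 7.57 and Gabpa at 5.9. Esrra exceeded Polrmt in 30 of 30 libraries and Esrrg exceeded Tfam in 30 of 30, with no overlap of their ranges. All other neighbours in this order overlapped, most of all Ppargc1a and Ppargc1b, where the first was higher in 16 of 30 libraries. The place of Ppargc1b differed between the tables. Its median was 5.79 FPKM at the end of the regimens and 9.58 after refeeding, where Tfb2m had 8.53 and Tfam 8.48. The lowest count of any member in any library was 260, for Ppargc1b in AL replicate 4, where counting error alone is 6.2%.

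**Figure D1:**
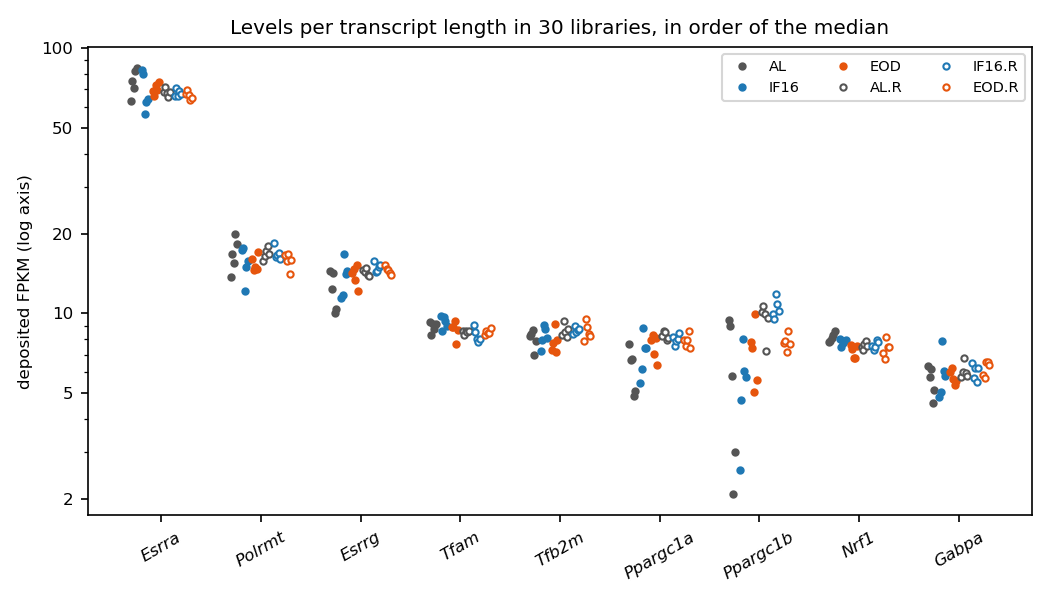
Deposited FPKM (log axis) of each member in each of the 30 libraries, members ordered by their median and libraries coloured by group, with open points for the refeeding groups. Esrra lies at 56.6 FPKM or above throughout, and Ppargc1b spreads from 2.09 to 11.8 FPKM, the widest range of the 9 genes.

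At the end of the regimens, no member differed between feeding groups beyond the threshold, set at 0.05 for the Benjamini-Hochberg adjusted p of the quasi-likelihood test in edgeR over all genes tested. In IF16 against AL, edgeR called 0 of 9 members (0.0483% of all genes were called), and 0 members had an unadjusted p under 0.05 (9.92% of all genes). In EOD against AL it called 0 of 9 (0.0664% of all genes) with 2 members at an unadjusted p under 0.05 (14.4% of all genes), and in EOD against IF16 it called 0 of 9 (0% of all genes) with 0 members at an unadjusted p under 0.05 (3.62% of all genes). DESeq2 also called 0 members in each of these comparisons. The first and second comparison share the AL libraries, so they are not independent of each other. All 9 members passed the filter on low counts in every fit.

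Ppargc1a was 40.1 ± 6.85 CPM (SD, n = 5) in AL, 45.3 ± 7.79 in IF16 and 49.3 ± 5.58 in EOD. Its AL libraries read 48.7, 42.6, 43, 32.6 and 33.6 CPM, its IF16 libraries 35.5, 39.8, 55.5, 47.2 and 48.4, and its EOD libraries 50.8, 53.8, 45.3, 54.6 and 41.7. The groups overlapped, and the lowest AL and IF16 values belonged to the libraries with the most negative length gradients. EOD exceeded AL by 0.30 on the log2 scale (SE 0.129, 95% interval 0.02 to 0.57, edgeR adjusted p = 0.332), and IF16 exceeded AL by 0.17 (SE 0.129, edgeR adjusted p = 0.641). With the length gradient as a covariate the EOD difference was 0.08 (SE 0.0574), and without the 4 libraries of extreme gradient it was 0.09 (SE 0.111).

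Ppargc1b was the most variable member. AL libraries held 33.9, 32.4, 20.8, 7.88 and 11.2 CPM of it, IF16 libraries 9.43, 17.2, 28.6, 21.9 and 21.1, and EOD libraries 28.2, 27.2, 18.4, 38.1 and 20.7. The lowest 3 values were in AL replicate 4, IF16 replicate 1 and AL replicate 5, and the highest was in EOD replicate 4, which are the 4 libraries of extreme length gradient. Its log2 difference was -0.11 in IF16 against AL (SE 0.355, 95% interval -0.86 to 0.64) and 0.32 in EOD against AL (SE 0.353, -0.43 to 1.06). Without those 4 libraries the differences were -0.39 (SE 0.197, edgeR adjusted p = 0.601) and -0.31 (SE 0.197, edgeR adjusted p = 0.796), and with the gradient as a covariate they were -0.34 (SE 0.113, edgeR adjusted p = 0.195) and -0.23. The direction of the EOD difference therefore turned with the handling of these libraries, and no fit placed it beyond the threshold.

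The estrogen-related receptors showed no call in either direction. Esrra, a receptor partner of the PGC-1 coactivators at respiratory chain genes, had group means of 168 (AL), 154 (IF16) and 159 CPM (EOD), and its values in single libraries ran from 139 to 191, from 123 to 185 and from 149 to 170 CPM. Its log2 differences from AL were -0.13 (SE 0.11) and -0.08 (SE 0.11). Esrrg, a constitutively active relative enriched in oxidative tissues, averaged 65.8 CPM over AL, 73 over IF16 and 75.5 over EOD libraries. EOD exceeded AL by 0.20 on the log2 scale for this gene (SE 0.113, edgeR adjusted p = 0.384), and by 0.01 (SE 0.102) without the 4 libraries of extreme gradient.

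Nrf1 was the member whose AL and EOD libraries did not overlap. Its AL libraries read 30.8, 31.4, 32.2, 34.6 and 35.3 CPM, and its EOD libraries 30.3, 29.9, 27.4, 28.8 and 30.8 CPM, with IF16 between 30.3 and 32.4. All 5 EOD libraries were thus below the lowest AL library, the closest pair differing by less than the rounding of these values. The difference was -0.16 on the log2 scale (SE 0.0592, 95% interval -0.28 to -0.03, edgeR adjusted p = 0.317), in a comparison where 2.9% of all genes did not overlap between the groups. The 2 highest AL values came from replicates 4 and 5, and without the 4 libraries of extreme gradient the difference was -0.09 (SE 0.0607, edgeR adjusted p = 0.799). With the gradient as a covariate it was -0.12 (SE 0.0533, edgeR adjusted p = 0.577), and with DESeq2 it was -0.15 (SE 0.0575, DESeq2 adjusted p = 0.193). Gabpa, the partner factor of the same promoters, differed from AL by 0.07 in IF16 (SE 0.109) and by 0.06 in EOD (SE 0.109), with 38.3 CPM in IF16 replicate 3 against 24.2 to 30 in the other IF16 libraries.

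None of the mitochondrial DNA factors passed the threshold, and Polrmt varied more from library to library than Tfam and Tfb2m. Tfam was 37.2 ± 1.67 CPM (SD, n = 5) in AL, 38.4 ± 1.86 in IF16 and 36.4 ± 2.02 in EOD. The 95% interval of its log2 difference from AL ran from -0.08 to 0.17 in IF16 and from -0.16 to 0.10 in EOD. Tfb2m lay between 17.6 and 22.1 CPM over the 15 libraries, and its log2 differences from AL were 0.03 (SE 0.0777) in IF16 and -0.02 (SE 0.0778) in EOD. Polrmt measured 57.5 to 88.2 CPM in AL, 50.9 to 75.6 in IF16 and 62.8 to 73.7 in EOD, and its differences from AL were -0.12 (SE 0.115) in both regimens. Between the 2 fasting regimens themselves, member differences ranged from -0.09 for Nrf1 to 0.43 for Ppargc1b (SE 0.354, 95% interval -0.32 to 1.18), and no edgeR adjusted p was under 0.977.

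**Figure D2:**
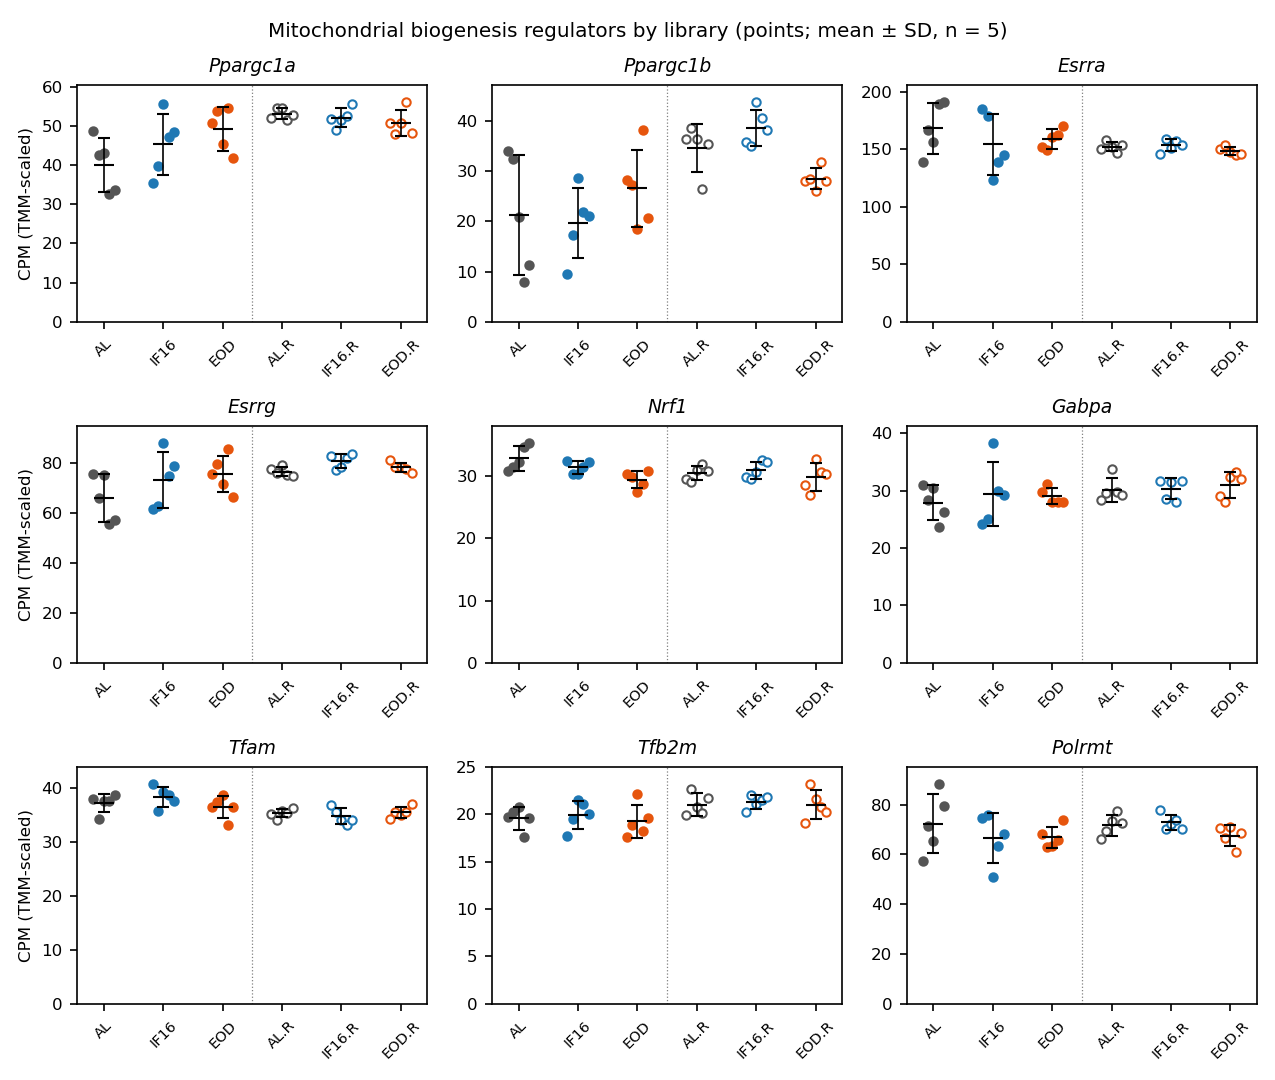
TMM-scaled CPM of each member by library, with filled points for the 3 groups at the end of the regimens and open points for the 3 groups after refeeding; bars give the mean and SD of 5 libraries. Ppargc1a, Esrra, Esrrg and Polrmt scatter more in AL and IF16 than after refeeding, as Ppargc1b does in AL, IF16 and EOD. The refed EOD libraries of Ppargc1b lie below all refed IF16 libraries.

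After 2 months of unrestricted food, again no member passed the threshold. The within-group SD of log2 CPM was smaller in these libraries for every member but Nrf1 (0.08 against 0.0692 at the end of the regimens). Age, the set of mice and the sequencing table differed as well. In refed IF16 against refed AL edgeR called 0 of 9 members (0.17% of all genes) and 1 had an unadjusted p under 0.05 (9.58% of all genes). In refed EOD against refed AL edgeR called 0 of 9 (0.0426% of all genes) with 1 at an unadjusted p under 0.05 (8.5% of all genes). In refed EOD against refed IF16 edgeR called 0 of 9 (0.0182% of all genes) with 2 at an unadjusted p under 0.05 (9.75% of all genes). DESeq2 called 0 members in the first 2 of these comparisons and 1, Ppargc1b, in the last. The refed IF16 and refed EOD comparisons share their refed AL libraries.

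For Ppargc1b, every library of refed EOD lay below every library of refed IF16. It measured 35.7, 35, 43.7, 40.6 and 38.1 CPM in refed IF16, 28.1, 28.4, 26.1, 31.7 and 28.1 CPM in refed EOD, and 36.3, 38.5, 36.3, 26.4 and 35.3 CPM in refed AL. The highest refed EOD library thus lay under the lowest refed IF16 library, whereas refed AL replicate 4 fell among the refed EOD values. The refed EOD minus refed IF16 difference was -0.44 on the log2 scale (SE 0.0849, 95% interval -0.62 to -0.26), with an edgeR p of 5.59e-05 before adjustment and an edgeR adjusted p of 0.115. In that comparison 1.26% of all genes did not overlap between the groups.

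The call on Ppargc1b depended on the method. DESeq2 gave the same difference of -0.44 with an adjusted p of 0.000402, and edgeR without a filter on low counts gave an adjusted p of 0.0499. With edgeR the adjusted p was 0.0497 without refed IF16 replicate 1 and 0.0454 without refed EOD replicate 1, and the difference ranged from -0.48 to -0.39 over the 10 fits that left out 1 library each. The length gradient went with these groups: refed IF16 libraries had 0.00465 to 0.0416 and refed EOD libraries -0.0261 to 0.00927. With the gradient as a covariate the difference was -0.22 (SE 0.101, edgeR adjusted p = 1). Against refed AL, Ppargc1b differed in refed EOD by -0.28 on the log2 scale (SE 0.0851, edgeR adjusted p = 0.334), and there the value with the gradient as a covariate was -0.30 (SE 0.0713). The refed IF16 mean exceeded that of refed AL by 0.16 on the log2 scale (SE 0.0839, edgeR adjusted p = 0.56).

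The remaining refeeding differences were small. Esrrg was 76.3 CPM in refed AL and 80.7 in refed IF16, a log2 difference of 0.08 (SE 0.0337, edgeR adjusted p = 0.459), with refed AL libraries from 74.5 to 79.1 CPM and refed IF16 libraries from 77.1 to 83.3. Polrmt was 67.5 CPM in refed EOD and 72.8 in refed IF16, a difference of -0.11 (SE 0.049, edgeR adjusted p = 0.489), with overlapping libraries. Mean Ppargc1a was 53.2 CPM for refed AL, 52.1 for refed IF16 and 50.8 for refed EOD, and the 95% intervals of its differences from refed AL ran from -0.12 to 0.07 and from -0.16 to 0.03. For Esrra these intervals were -0.06 to 0.08 and -0.10 to 0.03, and for Tfam -0.11 to 0.06 and -0.08 to 0.09. Nrf1, Gabpa and Tfb2m differed from refed AL by 0.02, 0.01 and 0.02 on the log2 scale in refed IF16 and by -0.03, 0.04 and 0.00 in refed EOD. The median absolute log2 difference of the 9 members was 0.022 in refed IF16 against refed AL and 0.035 in refed EOD against refed AL, beside 0.066 and 0.061 over all genes tested.

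**Figure D3:**
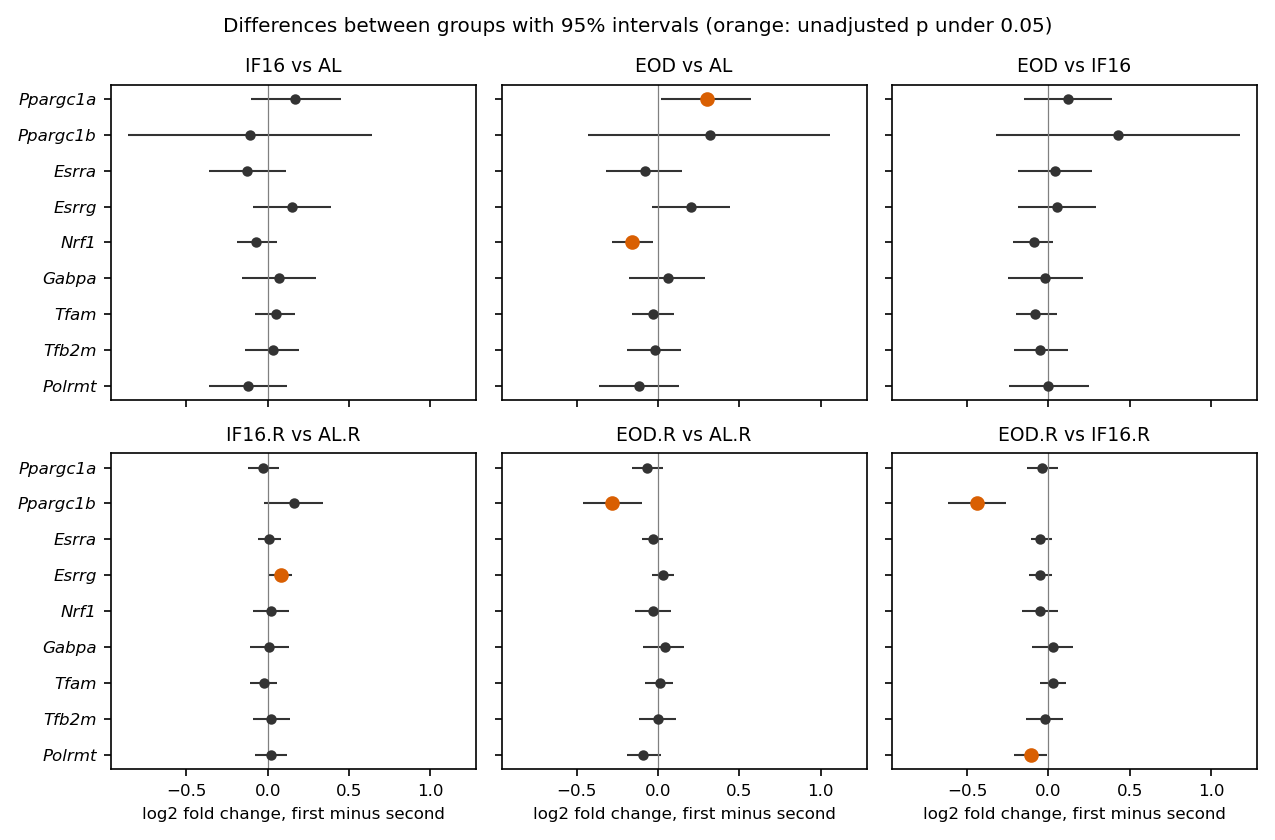
Log2 fold change of each member in the 6 comparisons between feeding groups (x axis; points with 95% intervals from edgeR), orange where the unadjusted p is under 0.05. Intervals of Ppargc1b are the widest at the end of the regimens, and after refeeding Ppargc1b in refed EOD against refed IF16, at -0.44, lies farthest from 0.

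Whether a fasting difference changed with refeeding was tested as an interaction in one edgeR fit of all 30 libraries. For IF16 edgeR called 0 of 9 members (0.0474% of all genes), with 0 at an unadjusted p under 0.05 (7.21% of all genes). For EOD it called 0 of 9 (0.0119% of all genes), with 1 at an unadjusted p under 0.05 (10.3% of all genes), and DESeq2 called 0 in both. The member with the smallest p was Ppargc1a, whose EOD difference differed between after and before refeeding by -0.36 on the log2 scale (SE 0.143, edgeR adjusted p = 0.462). With the gradient as a covariate that value was -0.15 (SE 0.0647), and without the 4 libraries of extreme gradient it was -0.16 (SE 0.112). For Ppargc1b the same term was -0.59 (SE 0.382, edgeR adjusted p = 0.537), and 0.03 (SE 0.208) without those 4 libraries. The EOD terms of the other 7 were -0.17 for Esrrg, 0.12 for Nrf1, 0.05 for Esrra, 0.03 for Tfam and Polrmt, -0.02 for Gabpa and 0.01 for Tfb2m. The IF16 terms ran from -0.20 for Ppargc1a to 0.28 for Ppargc1b, with 0.14 for Esrra and Polrmt, 0.09 for Nrf1, -0.07 for Esrrg and Tfam, -0.06 for Gabpa and -0.01 for Tfb2m. With the gradient as a covariate the IF16 terms were -0.20 for Ppargc1a (SE 0.0617, edgeR adjusted p = 0.157) and 0.19 for Ppargc1b (SE 0.141). Without the 4 libraries of extreme gradient they were -0.12 (SE 0.112) and 0.55 (SE 0.207, edgeR adjusted p = 0.358).

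The control groups of the 2 tables differed more than the feeding groups did. In refed AL against AL, edgeR called 23.9% of all genes and 1 of 9 members, Ppargc1a, which was 53.1 CPM in refed AL and 40.2 in AL in the joint scaling. All 5 refed AL libraries exceeded all 5 AL libraries, where 9.72% of all genes did not overlap. The difference was 0.40 on the log2 scale (SE 0.101, 95% interval 0.19 to 0.61, edgeR adjusted p = 0.00997). Age at collection cannot be told apart here from the set of mice and the sequencing table. The length gradient moved with it as well: AL ran from -0.158 to 0.0575 and refed AL from -0.0257 to -0.00359. With the gradient as a covariate the Ppargc1a difference was 0.12 (SE 0.0512, edgeR adjusted p = 0.298), without AL replicate 4 it had an adjusted p of 0.0518 by edgeR, and without the 4 libraries of extreme gradient it was 0.24 (SE 0.0826, edgeR adjusted p = 0.12).

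A further 3 members had an unadjusted p under 0.05 in refed AL against AL, where 40% of all genes did. Ppargc1b was 34.5 CPM in refed AL and 21.3 in AL (log2 difference 0.69, SE 0.271, edgeR adjusted p = 0.06), and Esrrg was 76.2 and 66 CPM (0.21, SE 0.0865, edgeR adjusted p = 0.0744). Nrf1 was lower, with 30.4 CPM in refed AL and 32.9 in AL (-0.11, SE 0.0526, edgeR adjusted p = 0.108). Esrra (-0.15), Gabpa (0.10), Tfb2m (0.10), Tfam (-0.08) and Polrmt (-0.02) had an unadjusted p above 0.05. Once the gradient was a covariate, the values for Ppargc1b and Esrrg were -0.02 each, and Polrmt went from -0.02 to 0.20 (SE 0.0756). The number of members called ranged from 0 without AL replicate 4 to 4 without AL replicate 1. The number of all genes called moved with it, from 830 without AL replicate 4 to 6173 without AL replicate 1. With every library kept it was 4030 of 16877, so the member counts followed the calls over all genes. Choroid plexus markers summed to between 45.3 and 4270 CPM in AL (median 2079) and between 44.1 and 1989 CPM in refed AL (median 46.4), and with them as a covariate the Ppargc1a difference was 0.34 (SE 0.105, edgeR adjusted p = 0.0467).

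**Figure D4:**
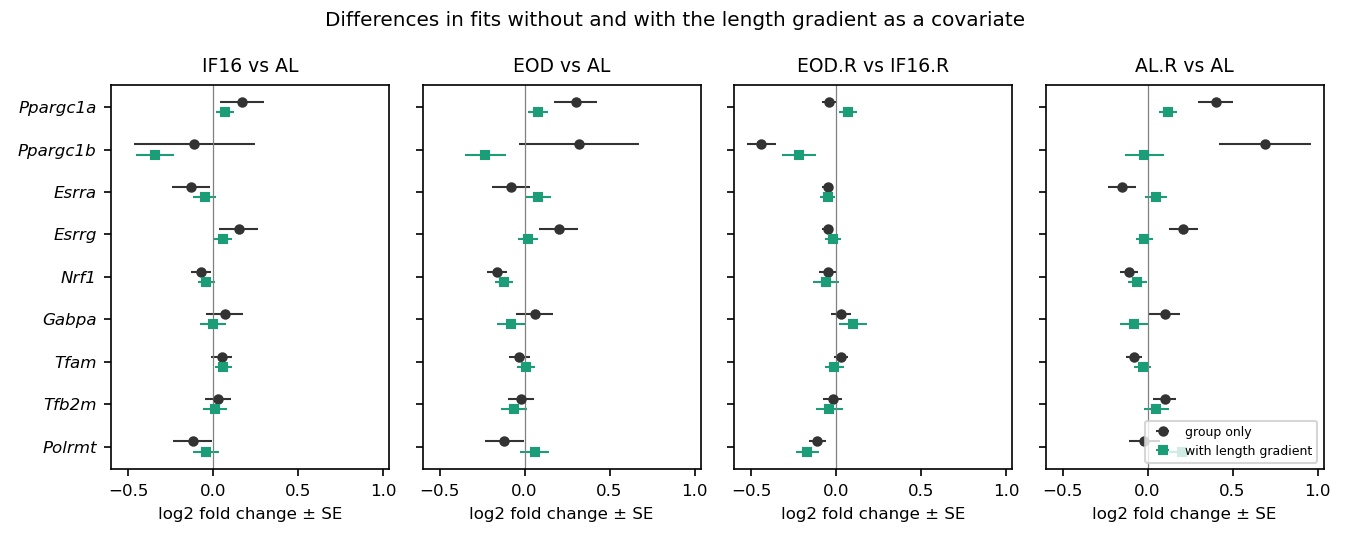
Log2 fold changes (x axis, with SE) of the members in 4 comparisons, from fits with feeding group alone (black circles) and with the length gradient added as a covariate (green squares). In refed AL against AL, Ppargc1a moves from 0.40 to 0.12 and Ppargc1b from 0.69 to -0.02, while Tfam stays within 0.1 of 0 in all 4 panels.

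Within the regimen libraries, levels of most members followed the length gradient, some rising along it and some falling. Group means were not removed for these correlations. Over these 15 libraries the gradient correlated with log2 CPM of Ppargc1a (Pearson r = 0.951, Spearman rho = 0.961), Ppargc1b (r = 0.946, rho = 0.918) and Esrrg (r = 0.924, rho = 0.954), each with a permutation p of 1e-05, the smallest that 100000 resamples can give, and 6e-05 after adjustment over 18 relations. Gabpa rose with the gradient too (r = 0.707, permutation p = 0.0031, adjusted 0.0094, and rho = 0.743, adjusted 0.0073). Esrra fell along it (r = -0.752, permutation p = 0.0014, adjusted 0.005, and rho = -0.818, adjusted 0.0015), as did Polrmt (r = -0.758, permutation p = 0.0014, adjusted 0.005, and rho = -0.789, adjusted 0.0031). Leaving out the 2 most distant libraries on the gradient, r was 0.951 for Ppargc1a, 0.917 for Ppargc1b, 0.894 for Esrrg, 0.805 for Gabpa, -0.897 for Esrra and -0.76 for Polrmt. Nrf1 gave r = -0.661 (adjusted permutation p = 0.017) but rho = -0.511 (0.11) and r = -0.464 without those 2 libraries. Tfam (r = -0.45, rho = -0.154) and Tfb2m (r = 0.264, rho = 0.232) did not pass. Within groups, the gradient took up a median of 54.8% of the variation of the 8175 genes with a mean between 15 and 200 CPM. Esrra (62.7%), Polrmt (58.7%) and Gabpa (52.4%) were near that median. Ppargc1b (92.3%), Ppargc1a (89.2%) and Esrrg (83.8%) were above it.

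The order was not that of gene length alone. Ppargc1b, listed at 3656 bases, is shorter than Tfam at 4167, Nrf1 at 4042 and Polrmt at 4288, and yet rose with the gradient where these did not. After refeeding, with a gradient of narrower range, 2 of the 9 relations passed adjustment: Ppargc1b (r = 0.697, permutation p = 0.0043, adjusted 0.011, and rho = 0.696, adjusted 0.012) and Esrrg (r = 0.639, permutation p = 0.01, adjusted 0.021, and rho = 0.625, adjusted 0.034). With the 2 most distant libraries left out, r was 0.585 and 0.644. Ppargc1a had r = 0.421 there (adjusted permutation p = 0.18, rho = 0.425) and Esrra r = 0.198 (adjusted 0.61, rho = 0.2). Group means were not removed for these correlations, and the gradient ranged from 0.00465 to 0.0416 in refed IF16 and from -0.0261 to 0.00927 in refed EOD. The correlations thus hold differences between groups as well as between libraries, and the share of all genes passing was not computed. Within refed groups the gradient took up 53.7% of the variation of Ppargc1a, 39% for Ppargc1b and 10.9% for Esrrg. The median was 8.45% over the 8167 genes with a mean between 15 and 200 CPM.

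**Figure D5:**
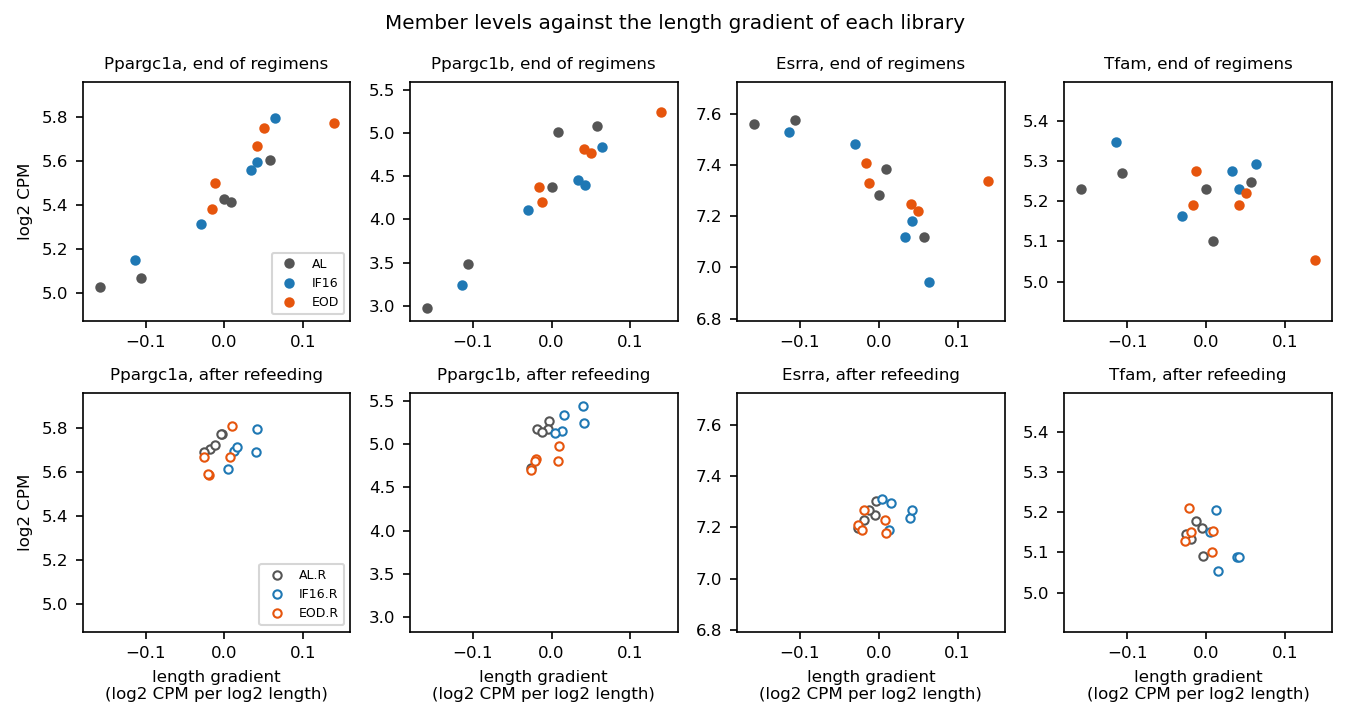
Log2 CPM of Ppargc1a, Ppargc1b, Esrra and Tfam (y axis, same range in both rows) against the length gradient of each library (x axis, log2 CPM per log2 bases), at the end of the regimens (top) and after refeeding (bottom), coloured by feeding group. In the top row Ppargc1a and Ppargc1b climb along the gradient (r of 0.951 and 0.946), Esrra declines (-0.752) and Tfam is nearly level, and the bottom row spans a much shorter range.

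The members also differed in their spread within groups. At the end of the regimens the within-group SD of log2 CPM was 0.682 for Ppargc1b, larger than in 99.7% of the 8175 genes with a mean between 15 and 200 CPM, whose median was 0.148. It was 0.227 for Ppargc1a, 0.2 for Polrmt, 0.194 for Esrrg, 0.188 for Esrra and 0.181 for Gabpa. Nrf1 (0.0692) and Tfam (0.073) were at the other end, at percentiles of 5.91 and 7.5, and Tfb2m (0.111) was at percentile 28. The gradient took up 92.3% of the within-group variation of Ppargc1b, 89.2% of that of Ppargc1a and 83.8% of that of Esrrg, but 21.1% for Tfam and 12.2% for Tfb2m, beside a median of 54.8% over those genes. After refeeding the SD of Ppargc1b was 0.157, still at percentile 93.5, and that of Ppargc1a 0.0687. That of Nrf1 was 0.08, at percentile 48.6.

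Members also varied together from library to library once the group means had been removed. The pairs were planned as a description without p. The pooled libraries differ in spread, with a median within-group SD of 0.148 at the end of the regimens and 0.0809 after refeeding over genes of 15 to 200 CPM. Over the 30 libraries, the strongest positive pairs among 36 were Ppargc1a with Esrrg (r = 0.929, rho = 0.863, adjusted permutation p = 0.00018 and 0.00036) and Ppargc1a with Ppargc1b (r = 0.879, rho = 0.855, adjusted 0.00024 and 0.00048). Ppargc1a with Esrra had the most negative r (-0.871, rho = -0.721, adjusted permutation p = 0.00043 and 0.0071). Leaving out the 2 libraries farthest from the median of Ppargc1a gave 0.903, 0.846 and -0.808. For these 3 pairs the relation was closer in the regimen libraries: within those 15 libraries r was 0.965, 0.912 and -0.92, and within the 15 refeeding libraries it was 0.431, 0.437 and -0.188. After removal of the length gradient, Ppargc1a had an r of 0.645 with Esrrg, -0.724 with Esrra and 0.0269 with Ppargc1b over the 30 libraries. Esrra with Gabpa was close to the negative pair above (r = -0.862, rho = -0.801, adjusted permutation p = 0.00018 and 0.00036). Its r was -0.778 without the 2 farthest libraries, -0.933 in the regimen libraries, -0.578 after refeeding and -0.768 after removal of the gradient.

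The genes whose levels tracked Ppargc1a, Esrra and Tfam most closely across the 30 libraries, again with group means removed, were sought among 13158 genes. For Ppargc1a they were Tnpo1 (r = 0.973), a nuclear import receptor, Man1a2 (0.972), a mannosidase of the Golgi, and Dmxl1 (0.97), all with listed lengths of 7969 bases or more. For Esrra they were Ccdc9 (0.953), Ptms (0.951), which encodes the small acidic protein parathymosin, and Prr24 (0.934), with listed lengths of 2773 bases or less. For Tfam they were Mtch2 (0.846), a protein of the outer mitochondrial membrane, Rsl1d1 (0.792) and Dcun1d5 (0.791). These values describe likeness in libraries that share the length gradient.

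The wider pathway was read from 7 gene lists, chosen with earlier results of these data known. List counts and medians from fits with the gradient as a covariate or without the 4 libraries of extreme gradient stand without all-gene values. Among 18 partners of the coactivators, edgeR called none in any comparison between feeding groups. The largest numbers with an unadjusted p under 0.05 were 4 higher and 1 lower in EOD against AL, where 14.4% of all genes reached it, and DESeq2 called none. Pprc1, the third member of the PGC-1 family, and Esrrb, the third estrogen-related receptor, were among these, with log2 differences of 0.21 (SE 0.0816, edgeR adjusted p = 0.318) and 0.24 (SE 0.0851, edgeR adjusted p = 0.309). In refed AL against AL, 7 partners were called higher (11.5% of all genes) and none lower by edgeR, namely Sp1 (0.46, SE 0.1, edgeR adjusted p = 0.00524), Pprc1 (0.41, SE 0.0939, edgeR adjusted p = 0.00698), Gabpb2 (0.45), Foxo3 (0.41), Hcfc1 (0.37), Foxo1 (0.36) and Esrrb (0.28). With the gradient as a covariate edgeR called none of the 18 there, with 7 at an unadjusted p under 0.05, and without the 4 libraries of extreme gradient it called 3, namely Esrrb, Pprc1 and Sp1.

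The 25 signals and modifiers acting on PGC-1, such as the AMP-activated kinase subunits, the deacetylase Sirt1 and the calcineurin subunit Ppp3ca, showed the same division. Neither edgeR nor DESeq2 called any of them between feeding groups, and at most 6 had an unadjusted p under 0.05, in EOD against AL. In refed AL against AL edgeR called 13 higher and 2 lower, where 11.5% of all genes were called higher and 12.4% lower. The higher ones were the kinase subunits Prkaa1, Prkaa2 and Prkab2, and Sirt1, Creb1, Crtc1, Crtc3, Camk4, Ppp3ca, Mef2a, Nrip1, Ncor1 and Fbxw7, with log2 differences from 0.17 (Crtc3) to 0.44 (Prkaa2). The lower ones were the kinase subunit Prkag1 (-0.49) and the methyltransferase Prmt1 (-0.23). The smallest p was that of Ppp3ca (869 CPM against 714, log2 difference 0.28, SE 0.0634, edgeR adjusted p = 0.00603). Once the gradient was a covariate edgeR called none of the 25 (7 at an unadjusted p under 0.05), and none without the 4 libraries of extreme gradient (10 at an unadjusted p under 0.05). Of the 24 genes for transcription and replication of mitochondrial DNA, 21 were found, none was called by edgeR or DESeq2 between feeding groups (at most 3 had an unadjusted p under 0.05), and 2 were called higher in refed AL than in AL (11.5% of all genes): Polg, the mitochondrial DNA polymerase (0.24, SE 0.0696, edgeR adjusted p = 0.0173), and Lig3, the ligase of mitochondria (0.42, SE 0.105, edgeR adjusted p = 0.00935). Neither was called by edgeR once the gradient was a covariate (2 of the 21 at an unadjusted p under 0.05) or without the 4 libraries of extreme gradient (4 at an unadjusted p under 0.05).

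Nuclear genes of the respiratory chain, the targets of this pathway, leaned to one side in several comparisons with small differences. In refed IF16 against refed AL, 26 of 31 were lower with a median of -0.074 on the log2 scale, against -0.002 over all genes. There edgeR called none, 13 had an unadjusted p under 0.05, all lower (4.83% of all genes), and DESeq2 called 3, namely Cox5a, Cox6b1 and Cox7c, subunits of cytochrome oxidase. In refed EOD against refed IF16, 27 of 31 were higher with a median of 0.082, against 0.004 over all genes. Here edgeR called none, 15 had an unadjusted p under 0.05, all higher (4.99% of all genes), and DESeq2 called 5. Cox6b1 was 131 CPM in refed AL, 115 in refed IF16 and 133 in refed EOD, a log2 difference of -0.19 for refed IF16 against refed AL (SE 0.0424, edgeR adjusted p = 0.0877) and of 0.21 for refed EOD against refed IF16 (SE 0.0425, edgeR adjusted p = 0.115). With the length gradient as a covariate the list medians were 0.004 and 0.022, with 15 and 9 of the 31 genes lower.

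At the end of the regimens the lean of this list turned with the libraries used. In EOD against AL 26 of 31 were lower (median -0.117, against -0.018 over all genes), with none called by edgeR or DESeq2 and 0 at an unadjusted p under 0.05. Without the 4 libraries of extreme gradient, 30 of 31 were higher (median 0.104), with none called by edgeR and 7 at an unadjusted p under 0.05, and with the gradient as a covariate 30 of 31 were higher (median 0.081), with 1 at an unadjusted p under 0.05. Whether this turn was particular to the list was not tested. In refed AL against AL edgeR called 19 of 31, all lower (12.4% of all genes), led by Cycs, cytochrome c, with 155 CPM against 197 (log2 difference -0.34, SE 0.0665, edgeR adjusted p = 0.00321). Among the others were Cox4i1, Cox6b1, Cox6c, Cox7a2 and Cox7b of cytochrome oxidase, Ndufs3, Ndufv1, Ndufv2 and Ndufa9 of complex I, Sdhb and Sdhc of succinate dehydrogenase, Uqcrc1, Uqcrfs1 and Uqcrq of the cytochrome bc1 complex, and Atp5c1, Atp5o and Atp5g1 of ATP synthase, with log2 differences from -0.51 (Uqcrq) to -0.18 (Uqcrfs1). With the gradient as a covariate edgeR called none of the 31, with 4 at an unadjusted p under 0.05, and without the 4 libraries it called 3: Cox6c, Cycs and Uqcrq.

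Transcripts of the mitochondrial genome, which Polrmt, Tfam and Tfb2m make, gave the only calls of edgeR in these lists between feeding groups. In refed IF16 against refed AL, mt-Atp6 was 49.5 CPM against 68 (log2 difference -0.46, SE 0.0786), mt-Co3 58.3 against 79.1 (-0.44, SE 0.0781) and mt-Nd3 5.41 against 9.07 (-0.74, SE 0.13), each with an edgeR adjusted p of 0.0312. Of all genes, edgeR called 0.17% in that comparison. These transcripts have near-identical copies in the nuclear genome, so their counts are uncertain, and mt-Nd4, another transcript of the list, was at 2964 CPM in refed AL and 2947 in refed IF16 (-0.01, SE 0.0423). Adding the gradient as a covariate, edgeR called none of the 13, with 6 at an unadjusted p under 0.05. DESeq2 called 4 lower in this comparison, the same 3 genes and mt-Co2, and 3 lower in refed EOD against refed AL, namely mt-Atp6, mt-Co2 and mt-Co3. The numbers of all genes that DESeq2 called are given in the last section. The smallest p of this list was in refed AL against AL for mt-Atp8, at 0.357 CPM against 0.0421 (edgeR adjusted p = 0.00172), a level of few reads. In that comparison edgeR also called mt-Nd4l higher (5.36 CPM against 2.37, log2 difference 1.17, SE 0.274, edgeR adjusted p = 0.0074) and mt-Nd4 lower (2959 CPM against 3429, -0.21, SE 0.0789, edgeR adjusted p = 0.0486). Of all genes, 11.5% were called higher there and 12.4% lower. Once the gradient was a covariate, or without the 4 libraries of extreme gradient, edgeR called mt-Atp8 alone of the 13.

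Genes known to respond to PGC-1 did not form calls by edgeR between feeding groups. Of 19 mitochondrial and antioxidant genes, such as Sod2 and Cat, 3 had an unadjusted p under 0.05 in EOD against AL, all higher, where 14.4% of all genes reached it in either direction, and DESeq2 called 1, Cpt1a, the carnitine palmitoyltransferase that admits fatty acids to mitochondria. Cpt1a, chosen after its values were seen, was 30.9 CPM in AL and 39.6 in EOD without overlap (log2 difference 0.36, SE 0.0738, edgeR adjusted p = 0.121), and 30.5 CPM in refed AL and 30.6 in refed EOD. In EOD against AL, 2.9% of all genes did not overlap between the groups. The others of the 3 were Pdk4 (0.71, SE 0.209, edgeR adjusted p = 0.251), also without overlap, and Ucp2 (0.40, SE 0.173, edgeR adjusted p = 0.332). In refed EOD against refed AL, Pdk4 differed by 0.36 (SE 0.138, edgeR adjusted p = 0.458) and Ucp2 by -0.01 (SE 0.0617). In refed AL against AL edgeR called 4 of the 19, all lower (12.4% of all genes): Gpx1, a glutathione peroxidase (-0.43, SE 0.0958, edgeR adjusted p = 0.00573), Prdx5 (-0.33), Txnrd2 (-0.33) and Txn2 (-0.26). Once the gradient was a covariate edgeR called none of them (3 of the 19 at an unadjusted p under 0.05, all lower), and without the 4 libraries of extreme gradient it called Gpx1 alone. Of 4 genes that depend on PGC-1alpha in inhibitory neurons, edgeR and DESeq2 called none between feeding groups (at most 1 had an unadjusted p under 0.05 by edgeR), and in refed AL against AL edgeR called Syt2 higher (0.20, SE 0.0485, edgeR adjusted p = 0.00815) and Cplx1 lower (-0.28, SE 0.0754, edgeR adjusted p = 0.0123). Once the gradient was a covariate edgeR called neither (2 of the 4 at an unadjusted p under 0.05), and without the 4 libraries of extreme gradient it called Syt2.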

How the data were processed

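RNA of 30 cerebellum libraries was analysed; the other 12 samples of the series were not analysed here. Whole-number read counts per gene were deposited by the authors, who used STAR 2.5, HTSeq 0.6.1 and the mouse build mm10, per the submitters' processing notes. The FPKM values deposited by the authors equalled counts scaled by gene length and library total to within 5e-12 and served only to compare levels between genes. Strand handling and the annotation release are not given in the sources used here.

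Counts were scaled by TMM and tested with edgeR 4.0.16 in R 4.3.3 (quasi-likelihood test, filterByExpr, Benjamini-Hochberg adjustment, threshold 0.05). The 3 groups of each table shared a fit (16577 and 16444 genes tested), and interactions and refed AL against AL came from a joint fit of both tables (16877 genes). The script was tested on simulated data. Alternatives were other size factors, DESeq2 1.42.0, no filter, covariates for length gradient and choroid plexus markers, a replicate block, only the 2 groups compared, single libraries left out and the 4 libraries of extreme gradient left out. Correlations used log2 CPM with a prior count of 2, and permutation tests used 100000 resamples.

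The members and lists were chosen with earlier results of these data known. All 9 members enter every comparison and are plotted in the 6 between feeding groups. From each other list, the genes that edgeR called and the gene of smallest p are named, except for a result that is not reported here. The 3 genes most like Ppargc1a, Esrra and Tfam by Pearson r are also named.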

Additional observations from a re-analysis of the deposited data

Results flagged for a closer look

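In 3 of 54 groups of 5 libraries, 1 library stood apart from the other 4 by Dixon's criterion (gap over range above 0.71), which chance meets in about 1 in 20 groups. Ppargc1b measured 26.4 CPM in refed AL replicate 4, against 35.3 to 38.5 CPM in the other refed AL libraries. Gabpa measured 33.7 CPM in refed AL replicate 3, against 28.3 to 29.8 CPM. Tfam measured 34.3 CPM in AL replicate 2, against 37.5 to 38.6 CPM.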

How the results depend on the processing

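In the 6 comparisons between feeding groups and the 2 interactions, 5 of 1431 member values under alternatives passed the threshold, all for Ppargc1b in refed EOD against refed IF16, and 95 changed sign. The number of genes called, in the order IF16, EOD (each against AL), EOD against IF16, refed IF16, refed EOD (each against refed AL), refed EOD against refed IF16, the IF16 and EOD interactions and refed AL against AL, was 8, 11, 0, 28, 7, 3, 8, 2 and 4030. DESeq2 gave 94, 133, 1, 105, 87, 123, 29 and 14 for the first 8, with 1 member in refed EOD against refed IF16. The length gradient as a covariate gave 62, 7, 1, 0, 0, 0, 36, 6 and 223 with edgeR (684, 1520 and 772 genes at an unadjusted p under 0.05 where it gave 0), and 0 members in refed AL against AL, where Ppargc1b and Esrrg turned to -0.02 and Polrmt to 0.20. The cause was not tested.

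RLE size factors gave 7 for EOD against AL. Without a filter the counts were 1 (EOD against IF16), 11 (refed EOD against refed AL), 6 with 1 member (refed EOD against refed IF16) and 4 (EOD interaction). Choroid plexus markers as a covariate gave 4 (IF16 against AL), 18 (EOD against AL), 16 (refed EOD against refed AL) and 1143 (refed AL against AL). With only the 2 groups compared, edgeR gave 5 (IF16 against AL), 1 (EOD against IF16), 4 (refed EOD against refed AL) and 0 (refed EOD against refed IF16, 1332 at an unadjusted p under 0.05). Without the 4 libraries of extreme gradient, chosen after seeing the data, it gave 2 (EOD against AL), 13 and 4 (interactions) and 405 with 0 members (refed AL against AL).

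Replicate numbers were not taken as pairs, since the labels do not pair them and only 3 of 15 same-numbered pairs had deviations correlated over 0.1 in the regimen table (-0.562 to 0.348) and 9 of 15 after refeeding (-0.0591 to 0.438). Of 15 libraries each, 0 and 7 correlated best with their own number. With a replicate block, edgeR called 5 genes in IF16 against AL, 4 in EOD against AL, 95 in refed IF16 against refed AL, 45 in refed EOD against refed AL, 40 with 1 member in refed EOD against refed IF16 (Ppargc1b, edgeR adjusted p = 0.0419) and 13 in the EOD interaction.

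With 1 library left out in turn, the counts ranged from 3 to 10, 2 to 6, 0 to 0, 0 to 65, 0 to 16, 0 to 71, 5 to 16, 0 to 6 and 830 to 6173, in the order above, and the members called from 0 to 1 in refed EOD against refed IF16, from 0 to 4 in refed AL against AL and 0 in the rest. refed AL against AL was lowest without AL replicate 4 and highest without AL replicate 1. Depth limited no member, since the lowest count was 260.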
